A study of Mus musculus with 6 samples.

Results

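Transcripts of the colon's epithelial keratins and of villin were compared between mice prone to obesity (OP) and mice resistant to it (OR). The genes were *Krt7*, *Krt8*, *Krt18*, *Krt19*, *Krt20*, *Krt23* and *Vil1*, taken by gene symbol from the 17778 symbols of the deposited expression table. All 7 were found, and all 7 were among the 13520 genes that passed the filter on low values, a level of 0.5 or more in 3 or more mice in FPKM, a fragment count scaled for transcript length and library size. None of the 7 passed the test between OP and OR mice, and in each the values of the groups overlapped. *Krt20* and *Vil1* varied together from mouse to mouse, alongside the averaged level of a list of colon surface genes, 1 of 16 lists compared.

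Keratins are the intermediate filament proteins of epithelial cells. They assemble only as pairs of an acidic type I and a basic type II protein, and simple epithelia such as that of the colon are built around the type II keratin *Krt8* with the type I keratins *Krt18* and *Krt19*. *Krt20* is a type I keratin of differentiated intestinal cells, found towards the top of the crypt and at the surface. Villin, the product of *Vil1*, bundles and severs actin in the microvilli of the brush border and is a classical marker of the intestinal epithelium.

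The 6 samples were colon RNA of 3 OP and 3 OR mice. All were male wild-type C57BL/6J mice kept on the same high-fat diet until the end of the feeding period. OP mice were those of the cohort that gained the most weight on the diet and OR mice those that gained the least, so the groups were set by weight gain and not by genotype or treatment, and mice on a normal diet were not analysed here. The part of the colon sampled is not given in the sources used here, and the labels number the samples without saying that each came from its own animal, so the p-values measure the spread between these samples, which may in part be technical.

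The FPKM values summed to between 585350 and 600028 per sample, and between 16287 and 16619 symbols had a value above 0. FPKM keeps no read totals, so depth and counting error are unknown. OP mouse 1 stood apart from the other samples in median FPKM and sample weight. Its median FPKM was 3.55, against 4.90 to 5.76 in the others, and limma gave it the lowest sample weight, 0.332. By Pearson correlation of log2(FPKM + 1), OP mouse 2 was the least like any other sample. Its highest correlation was 0.970, against 0.979 to 0.985 in the others. The tissue label was checked against marker genes. All 15 general epithelial markers listed were measured, with summed FPKM between 9613 and 11785 per mouse. The 9 squamous epithelial markers measured summed to between 2.12 and 2.92 FPKM, with the basal keratin *Krt5* and the basal regulator *Trp63* listed at 0 in all mice but OR mouse 3, where each was at 0.03. The 6 mesothelial markers summed to between 1.68 and 8.22 FPKM.

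The sequences before the start sites of 4 of these genes are shown because their transcripts illustrate the results below. *Krt8* and *Krt18* are next to each other among the coding genes of chromosome 15 and encode partner proteins, but their transcript levels came apart. *Krt20*, on chromosome 11 beside *Krt23*, and *Vil1*, on chromosome 1, lie apart but had levels that moved together over the mice. Each window holds 250 bases before and 50 bases from the start of the gene in RefSeq, build GRCm38.p6, another build than the one named for the deposited values. A window was listed for 6 of the 7 genes. The positions are chr15:102004293-102004592 on the minus strand for *Krt8*, chr15:102027966-102028265 on the plus strand for *Krt18*, chr11:99438104-99438403 on the minus strand for *Krt20* and chr1:74409134-74409433 on the plus strand for *Vil1*. Each is written 5′ to 3′ along its gene. Capitals mark TATAAA (the TATA box), TTTAT (the core bound by caudal homeobox factors such as CDX2) and GGGCGG (the GC box) on either strand.
Krt8: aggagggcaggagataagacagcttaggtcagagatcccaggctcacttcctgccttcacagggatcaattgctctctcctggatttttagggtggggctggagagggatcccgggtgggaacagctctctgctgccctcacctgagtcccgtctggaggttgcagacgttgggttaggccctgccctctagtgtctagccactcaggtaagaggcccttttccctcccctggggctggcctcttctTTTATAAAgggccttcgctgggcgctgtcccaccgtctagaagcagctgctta
Krt18: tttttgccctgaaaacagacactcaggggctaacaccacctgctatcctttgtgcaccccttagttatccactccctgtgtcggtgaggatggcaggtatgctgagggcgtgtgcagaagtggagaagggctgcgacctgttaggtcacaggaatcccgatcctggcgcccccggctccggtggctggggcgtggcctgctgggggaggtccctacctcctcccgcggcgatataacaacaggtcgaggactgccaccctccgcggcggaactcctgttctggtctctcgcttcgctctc
Krt20: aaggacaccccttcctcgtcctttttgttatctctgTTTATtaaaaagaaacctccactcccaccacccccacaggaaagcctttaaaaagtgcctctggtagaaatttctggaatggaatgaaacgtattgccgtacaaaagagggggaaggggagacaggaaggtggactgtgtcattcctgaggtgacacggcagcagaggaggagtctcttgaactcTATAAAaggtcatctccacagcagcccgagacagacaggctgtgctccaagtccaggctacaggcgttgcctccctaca
Vil1: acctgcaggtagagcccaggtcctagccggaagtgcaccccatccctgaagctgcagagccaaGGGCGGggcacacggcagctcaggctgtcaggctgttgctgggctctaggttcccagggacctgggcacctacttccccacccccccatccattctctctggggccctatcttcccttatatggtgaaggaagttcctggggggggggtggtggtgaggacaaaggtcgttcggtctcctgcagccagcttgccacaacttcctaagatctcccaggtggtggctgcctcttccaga

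The window of *Krt20* holds TATAAA at position -29 from the start site and TTTAT at -214, besides the TTTAT on the opposite strand that overlaps its TATAAA. The *Krt8* window holds the run TTTATAAA at the annotated start, which matches TATAAA on both strands and overlaps TTTAT on both strands. In *Krt18* none of these letters were found, and in *Vil1* only 1 GGGCGG, at -187. Of all 32851 windows in the table, 13.6% hold TATAAA, 40.0% TTTAT and 35.7% GGGCGG, on either strand. These matches describe the letters only.

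*Krt8*, the main type II keratin of the colon, had the highest level of the 7 genes. Its FPKM was 3130.3, 3649 and 2434 in OP mice 1, 2 and 3 and 2705, 3235 and 3051 in OR mice 1, 2 and 3. It ranked between place 4 and place 12 of all symbols in each mouse. The OR mice lay inside the range of the OP mice. The means were 3071 ± 609.96 FPKM (SD, n = 3) in OP mice and 2997 ± 269 FPKM (SD, n = 3) in OR mice.

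*Krt19*, a type I keratin that pairs with *Krt8*, had the next highest level. Its FPKM was 2059, 2757 and 1852 in OP mice 1, 2 and 3 and 2009, 2533 and 2391 in OR mice 1, 2 and 3. *Krt8* was above *Krt19* in all 6 mice, by 1.28 to 1.52 times, although the ranges of the 2 genes overlapped. The lowest *Krt8* and *Krt19* values were both in OP mouse 3 and the highest both in OP mouse 2. These were the steadiest of the 7 genes, with a highest value 1.5 times the lowest for *Krt8* and 1.49 times for *Krt19*. Among the 9024 genes with a mean FPKM of at least 5, the median of this ratio was 1.59.

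*Krt18*, the classical partner of *Krt8*, was lower and far less steady. Its FPKM was 103 in OP mouse 1, 435 in OP mouse 2 and 218 in OP mouse 3, and 212, 186 and 344 in OR mice 1, 2 and 3. OP mice held both the lowest and the highest value, a difference of 4.21 times. The means were 252 ± 168 FPKM (SD, n = 3) in OP mice and 247 ± 84.4 FPKM (SD, n = 3) in OR mice.

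For *Krt20*, OP mice 1, 2 and 3 gave 1299.6, 937 and 406 FPKM, whereas OR mice 1, 2 and 3 gave 403, 976 and 500.01 FPKM. OP mouse 1, OR mouse 2 and OP mouse 2 were high, and the other 3 mice, from both groups, were low. The lowest OP and the lowest OR mouse differed by little, 406 against 403. The means were 881 ± 449 FPKM (SD, n = 3) in OP mice and 626 ± 307 FPKM (SD, n = 3) in OR mice, a ratio of 1.41. In bulk tissue, fewer cells of a type and less RNA per cell cannot be told apart.

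For *Vil1*, the FPKM values were 585, 450.1 and 345 across OP mice 1, 2 and 3, set against 279.8, 481 and 313 across OR mice 1, 2 and 3. OP mouse 1 was again the highest and OR mouse 1 the lowest. OR mouse 2 was above OP mice 2 and 3, so the groups overlapped. The means were 460.1 ± 120.4 FPKM (SD, n = 3) in OP mice and 358 ± 108 FPKM (SD, n = 3) in OR mice, a ratio of 1.28.

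*Krt7*, a type II keratin better known from ducts and other simple epithelia, was low. Its FPKM was 32.5, 45.7 and 79.8 in OP mice 1, 2 and 3 and 55.1, 57.8 and 99.2 in OR mice 1, 2 and 3. OP mice 1 and 2 were below all OR mice, and OP mouse 3 was above OR mice 1 and 2. *Krt23*, a little studied type I keratin, was the lowest, with 2.39, 6.61 and 7.76 FPKM in OP mice and 4.96, 1.92 and 6.34 FPKM in OR mice 1, 2 and 3. OP mouse 1 and OR mouse 2, high in *Krt20*, were the low samples here, but OP mouse 2, also high in *Krt20*, was not low.

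**Figure D1:**
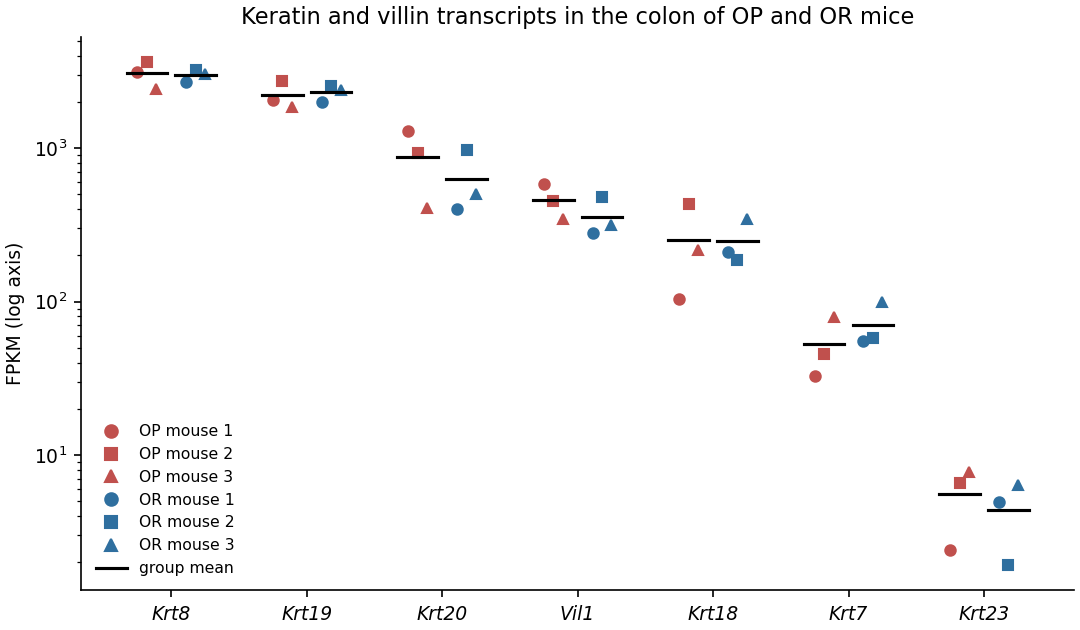
FPKM on a log axis of the 7 genes, ordered by mean level, in 3 OP mice (red) and 3 OR mice (blue), with symbols for mice 1, 2 and 3 and bars for the group means. In each gene the OP and OR points overlap, *Krt8* and *Krt19* sit close together at the top, and *Krt18* spreads from 103 to 435 within the OP mice.

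In the order of levels, the ranges over the 6 mice were apart between *Krt19* and *Krt20*, between *Krt18* and *Krt7* and between *Krt7* and *Krt23*. *Krt8* and *Krt19* overlapped, as did *Krt20* and *Vil1*, and *Vil1* and *Krt18*. *Krt20* was nevertheless above *Vil1* in each of the 6 mice, by 1.18 to 2.22 times. *Vil1* was above *Krt18* in 5 of the 6, the exception being OR mouse 3.

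The 7 genes were then compared between OP and OR mice within a limma-trend fit of log2(FPKM + 1) over all 13520 genes, where a call required a ratio of 1.2 or more, or of 0.83 or less, together with an adjusted p below 0.2 (Benjamini-Hochberg). None of the 7 genes was called (0 of 7), beside 3 genes or 0.0222% of all genes tested. At an unadjusted limma-trend p below 0.05 the count was also 0 of 7, beside 4.03% of all genes. In 0 of 7 the OP and OR values did not overlap, beside 8.44% of all genes. The adjusted p of the 7 genes lay between 0.945 and 0.989 (limma-trend, Benjamini-Hochberg adjustment). Of the log2 fold changes, 4 were above 0 and 3 below, with a median of 0.02, where the median of all genes was -0.10. With the samples scaled by the median of their ratios the median of all genes moved to 0.01 and that of the 7 genes to 0.16, with 5 above 0 and 2 below. Without OP mouse 1 the median of all genes was -0.01 and that of the 7 genes 0.09, with 4 above 0 and 3 below.

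The intervals show how much each comparison could resolve. The log2 fold change OP minus OR on the log2(FPKM + 1) scale was 0.02 for *Krt8* (standard error 0.22), with a 95% interval from -0.49 to 0.53, so that OP levels from 0.71 to 1.45 times those of OR mice were within it. For *Krt19* it was -0.07 (standard error 0.22), with an interval from -0.58 to 0.44. *Krt18* had -0.15 (standard error 0.49) and an interval from -1.31 to 1.00. A log2 difference of 1 in either direction lies outside the intervals of *Krt8* and *Krt19*. For *Krt18* a difference of -1 lies inside the interval, and one of 1 lies just inside its upper end.

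For the differentiation-linked genes the estimates were above 0 with wide intervals. The log2 fold change of *Krt20* was 0.44 (standard error 0.48), with an interval from -0.68 to 1.57. *Vil1* had 0.37 (standard error 0.26), with an interval from -0.25 to 0.99 and an unadjusted p of 0.205 in limma-trend, the lowest of the 7. *Krt7* had -0.46 (standard error 0.35), from -1.29 to 0.37, and *Krt23* 0.27 (standard error 0.46), from -0.81 to 1.35. The two-sided exact permutation test on FPKM gave p between 0.3 and 0.9 over the 7 genes, where 3 mice against 3 allow no p below 0.1. Without OP mouse 1 the *Krt20* value was 0.09 and the *Vil1* value 0.18, while *Krt18* turned to 0.37. Without OP mouse 3, *Krt7* had -0.80 with an unadjusted p of 0.0355 and *Krt20* had 0.92, and without OR mouse 2, *Vil1* had 0.60 with an unadjusted p of 0.0476, and in these fits the adjusted p was 0.512, 0.530 and 0.851 in limma-trend.

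**Figure D2:**
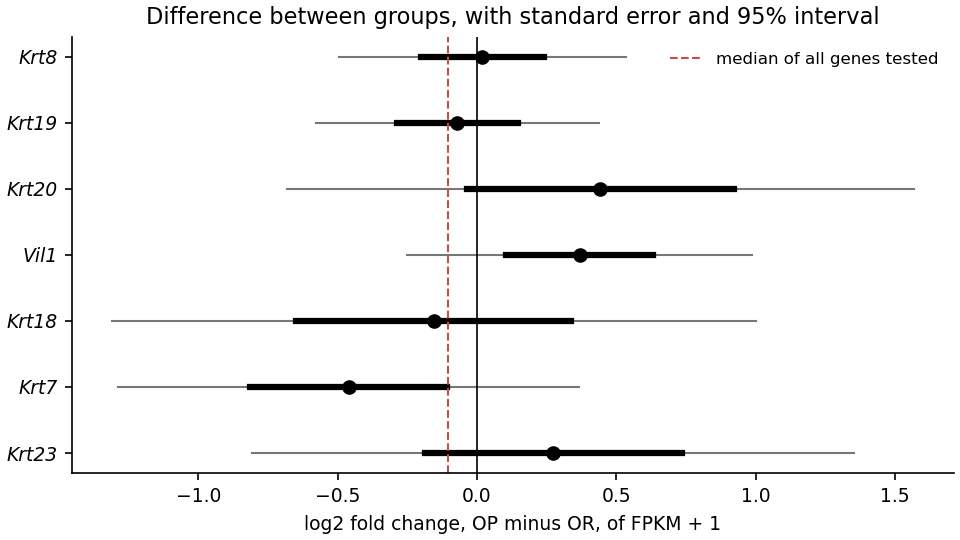
Log2 fold change (OP minus OR, of FPKM + 1) of each gene from limma-trend, with the standard error as a thick line and the 95% interval as a thin line, and the median of all 13520 genes, -0.10, as a dashed line. All 7 intervals hold 0, and those of *Krt8* and *Krt19* are the narrowest.

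The make-up of the keratin pool was examined within each mouse, where scaling between samples plays no part. *Krt8* took 46.2% to 50.1% of the summed FPKM of all keratin symbols in each mouse, and *Krt19* took 31.0% to 37.4%. *Krt20* ranged from 7.47% in OR mouse 1 to 19.6% in OP mouse 1. *Krt18* ranged from 1.56% in OP mouse 1 to 5.55% in OP mouse 2. *Krt7* reached at most 1.59% and *Krt23* at most 0.155%. The 31 other keratin symbols in the table summed to between 0.125% and 0.196%. The pool of these colons was thus made of *Krt8*, *Krt19* and *Krt20* for the most part, in OP and OR mice.

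The summed type I keratins and the summed type II keratins were nearly level in each mouse. The ratio of *Krt18*, *Krt19*, *Krt20* and *Krt23* to *Krt7* and *Krt8* was 1.10, 1.12 and 0.988 in OP mice 1, 2 and 3 and 0.952, 1.12 and 1.03 in OR mice 1, 2 and 3. The means were 1.07 ± 0.0697 (SD, n = 3) in OP and 1.03 ± 0.0855 (SD, n = 3) in OR mice, and the two-sided exact permutation test on log2 ratios gave p = 0.7. The highest ratio was 1.18 times the lowest. For *Krt19* to *Krt8* alone the highest was 1.19 times the lowest, from 0.658 in OP mouse 1 to 0.784 in OR mouse 3. Without *Krt20* and *Krt23* the type I to type II ratio was lower in OP mouse 1, at 0.684, than in the other mice, at 0.804 to 0.868, and the highest was 1.27 times the lowest.

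Of the other 3 ratios tested, *Krt8* to *Krt18* varied the most. It was 30.3, 8.39 and 11.2 in OP mice 1, 2 and 3 and 12.8, 17.4 and 8.88 in OR mice 1, 2 and 3 (two-sided exact permutation p = 0.9). OP mouse 1 had the highest and OP mouse 2 the lowest value, so partner transcripts encoded side by side differed by between 8.39 and 30.3 times. *Krt8* also has a pseudogene in the RefSeq table, and the sources used here do not say how reads common to near-identical copies were shared out.

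*Krt20* to *Krt8* was 0.415, 0.257 and 0.167 in OP mice and 0.149, 0.302 and 0.164 in OR mice 1, 2 and 3 (two-sided exact permutation p = 0.5). *Vil1* relative to the geometric mean of the 15 general epithelial markers was 1.81, 1.30 and 1.08 in OP mice and 0.838, 1.47 and 0.935 in OR mice 1, 2 and 3 (two-sided exact permutation p = 0.3). OP mouse 1 and OR mouse 2 were the highest in both ratios. Adjusted over the 4 ratios, each p was 0.9 (Benjamini-Hochberg, exact permutation test).

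**Figure D3:**
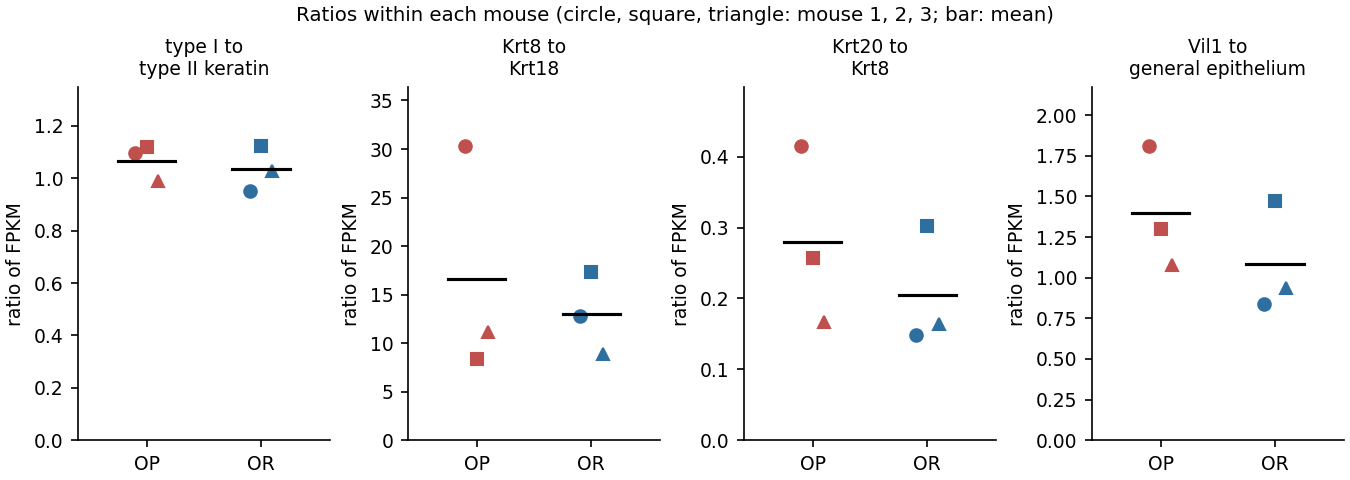
Ratios of FPKM within each of the 3 OP mice (red) and 3 OR mice (blue), with bars for the group means and axes that start at 0. The type I to type II ratio stays between 0.952 and 1.12, whereas *Krt8* to *Krt18* runs from 8.39 to 30.3, and the groups overlap in all 4 panels.

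The genes did not vary over the mice as a block. On the log2(FPKM + 1) scale over the 6 mice, *Krt20* and *Vil1* had a Pearson correlation of 0.96 (Spearman 0.94), and 0.92 without OP mouse 1 and OR mouse 1, the 2 samples farthest from the median of *Krt20*. *Krt8* and *Krt19* had 0.91 (Spearman 0.94), which became 0.68 without OP mice 2 and 3. *Krt8* and *Krt18*, by contrast, had 0.29 (Spearman 0.09), and -0.25 without OP mice 2 and 3. These correlations are descriptions over n = 6 samples, whose values share the library and its scaling.

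*Krt20* and *Vil1* were set beside the surface colonocyte list, 9 genes of the cells at the top of the crypt. The list holds *Car1*, a carbonic anhydrase, *Lypd8*, a secreted antibacterial protein, and *Aqp8*, a water channel. The mean deviation of the list from the average of the 6 mice was 0.90, 0.28 and -0.52 in OP mice 1, 2 and 3 and -0.65, 0.53 and -0.54 in OR mice 1, 2 and 3 on the log2(FPKM + 1) scale. The Pearson correlation with this score was 0.98 for *Krt20* and 0.98 for *Vil1* (Spearman 0.94 and 1.00), and 0.97 and 0.98 without OP mouse 1 and OR mouse 1. This list was 1 of 16 set beside the genes, so a high correlation over 6 samples describes these samples only. The score is an unscaled mean, in which genes with a wide range, above all *Aqp8*, weigh most. *Aqp8* had 1060.0 and 1084 FPKM in OP mice 1 and 2 and 358 in OR mouse 2, but 39.4, 10.1 and 25.3 FPKM in OP mouse 3, OR mouse 1 and OR mouse 3. The 3 mice highest in *Krt20* were also the 3 highest in 5 of the 9 surface genes, *Aqp8*, *Slc26a3*, *Guca2a*, *Lypd8* and *Emp1*, a count taken after the values were seen. The other 4, *Car1*, *Car4*, *Clca4b* and *Cyp2c55*, had another order. *Car1* had 14584, 1054 and 4836 FPKM in OP mice and 5255, 15723 and 6339 FPKM in OR mice 1, 2 and 3, so that OP mouse 2, high in *Krt20*, was its lowest sample. OP mouse 2 was also the lowest in *Cyp2c55*, at 348 FPKM.

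*Krt18*, *Krt7* and *Krt23* were set beside the same lists. *Krt18* had a correlation of 0.78 with the goblet cell list of 7 genes (Spearman 0.54) and 0.71 without OP mice 1 and 2. It had 0.76 with the crypt base and cycling list (Spearman 0.60), 0.75 with the general epithelium list (Spearman 0.66) and -0.82 with the brush border list (Spearman -0.71), so no single list stood out. In OP mouse 1, where *Krt18* was lowest, the goblet list deviated by -1.96, and the goblet cell genes *Agr2*, a disulfide isomerase of mucin folding, and *Zg16*, a mucus lectin, had 41.2 and 236 FPKM. In OP mouse 2, where *Krt18* was highest, *Agr2* was high at 1344 FPKM but *Zg16* was low at 282 FPKM. In OR mouse 3 the same list deviated by 1.62, with *Agr2* at 1366 and *Zg16* at 2238 FPKM. Between the groups, 0 of the 7 goblet genes were called. Their median log2 fold change was -1.21, with all 7 below 0, as were 9475 of all 13520 genes. At an unadjusted limma-trend p below 0.05, 2 were lower in OP mice, beside 4.03% of all genes in either direction. Without OP mouse 1 their median was -0.67, with 6 below 0, beside 7115 of all genes. *Krt23* had a correlation of 0.94 with the 5 tuft cell genes tested (Spearman 0.77), and 0.66 without OP mouse 1 and OR mouse 2. With the 5 enteroendocrine genes it had 0.88 (Spearman 0.77), and 0.48 without these mice. The correlation of *Krt7* with the goblet list, 0.76, turned to -0.48 without OP mouse 1 and OR mouse 3, so it rests on those samples. These lists were picked from 16 after their values had been seen, and their part in the levels of the keratins was not tested.

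**Figure D4:**
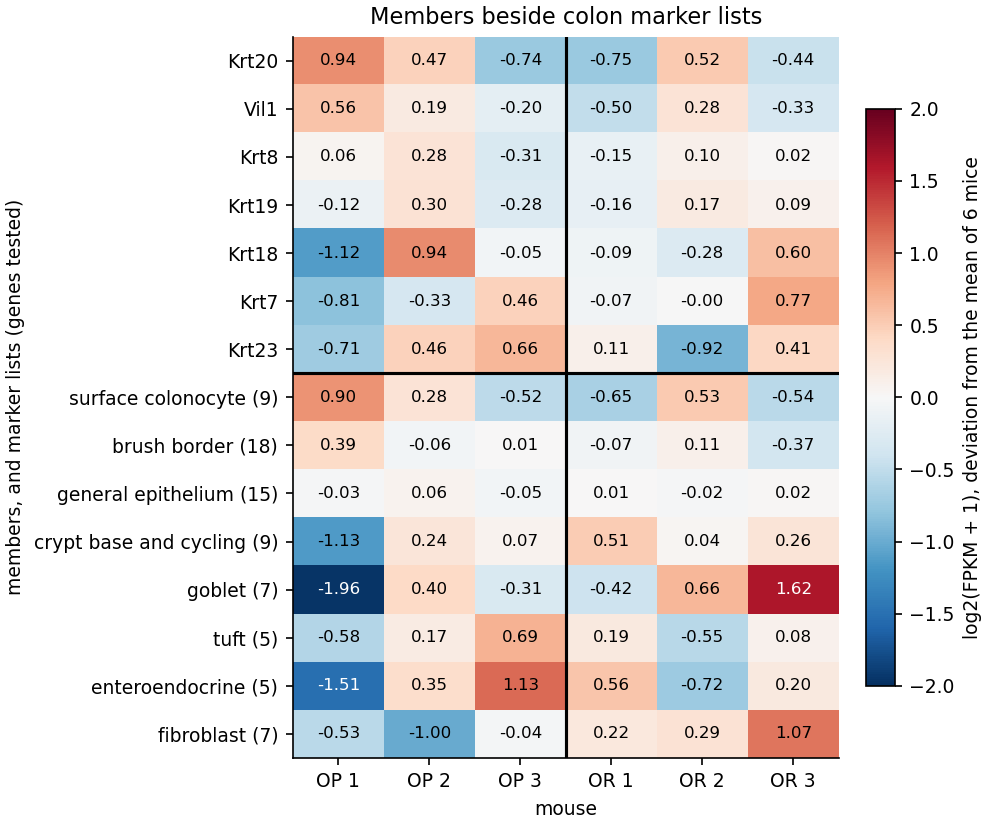
Deviation of log2(FPKM + 1) from the mean of the 6 mice, for each of the 7 genes (upper rows) and averaged over marker lists (lower rows, with the number of genes tested), in each mouse. *Krt20* and *Vil1* share their red and blue columns with the surface colonocyte list, from 0.90 in OP mouse 1 to -0.65 in OR mouse 1. Rows of lists are means over several genes, so their spread is not comparable with that of a single gene.

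The genes whose levels were most like those of *Krt20* among 9023 genes with a mean FPKM of at least 5 included *Pgm2* and *Smap1*, with Pearson correlations from 0.997 to 0.998 over the 6 mice. *Smap1* had 54.3, 46.5 and 33.2 FPKM in OP mice and 32.3, 48.1 and 37.0 FPKM in OR mice 1, 2 and 3, again with OP mouse 1 highest and OR mouse 1 lowest. For *Vil1* they were *Tut7*, *Map2k1* and *Parp4*, with correlations from 0.995 to 0.997. For *Krt8* they were *Tmem43*, *Mfsd6* and *Ly6m*, with correlations from 0.985 to 0.992. With 6 samples and 9023 genes searched, values this near 1 describe these samples only.

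Genes that work with villin in the brush border were measured as a list of 19, of which 18 were tested. It includes *Cdhr2* and *Cdhr5*, protocadherins that link the tips of microvilli, and *Eps8*, an actin regulator at those tips. None was called. At an unadjusted limma-trend p below 0.05, 1 was higher in OP mice and 0 were lower, beside 4.03% of all genes in either direction. The median log2 fold change was 0.31, with 15 of 18 above 0, where the median of all genes was -0.10 and 4045 of 13520 were above 0 (7030 with scaling by the median of ratios). It was 0.32 with the samples scaled to the general epithelial markers, 0.44 with scaling by the median of ratios, 0.12 without OP mouse 1 and 0.15 without OR mouse 3. In the same fits and order, the median of all genes was -0.09, 0.01, -0.01 and -0.09. *Cdhr5* had 616 ± 173 FPKM (SD, n = 3) in OP mice and 547 ± 79.7 FPKM (SD, n = 3) in OR mice. *Eps8* had the largest difference of the list at 0.68 (standard error 0.38), with 129, 87.8 and 54.3 FPKM in OP mice and 41.6, 85.5 and 41.6 FPKM in OR mice 1, 2 and 3. *Eps8l2*, a relative of *Eps8* named after its values were seen, was the 1 gene below 0.05, with every OP mouse above every OR mouse and an adjusted p of 0.945 (limma-trend, Benjamini-Hochberg adjustment).

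The list of the villin family, 7 further genes, gave 0 called genes and a median of -0.01 that turned to 0.12 with scaling by the median of ratios. *Gsn*, which encodes gelsolin, had 107, 84.1 and 94.1 FPKM in OP mice and 154, 185 and 243 FPKM in OR mice 1, 2 and 3. Every OP mouse was below every OR mouse, in contrast to *Vil1*, whose values overlapped. The log2 fold change of *Gsn* was -1.01 (standard error 0.19), with an unadjusted p of 0.000925 and an adjusted p of 0.624 in limma-trend, so it did not pass the threshold. *Flii*, which encodes flightless-1, had 59.2 ± 1.13 FPKM (SD, n = 3) in OP mice and 59.9 ± 3.30 FPKM (SD, n = 3) in OR mice. Of the 7 fibroblast markers 0 were called. All 7 had a log2 fold change below 0, as had 9475 of all 13520 genes, and 5 had an unadjusted limma-trend p below 0.05, beside 4.03% of all genes. Without OP mouse 1 all 7 were again below 0, as were 7115 of all genes. Their summed FPKM was 90.5 to 178 in OP mice and 247 to 482 in OR mice. The part of fibroblasts in the *Gsn* values was not tested.

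Keratin filaments are anchored to desmosomes through plakins. Of the 11 desmosome and plakin genes, all tested, 0 were called, and the median log2 fold change was 0.06, with 7 above 0, or 10 with scaling by the median of ratios. *Dsg2*, a desmosomal cadherin, had 127 ± 31.9 FPKM (SD, n = 3) in OP mice and 119 ± 25.1 FPKM (SD, n = 3) in OR mice. *Jup*, which encodes plakoglobin, had 116 ± 23.1 and 102 ± 13.8 FPKM (SD, n = 3). *Ppl*, which encodes periplakin, had the largest difference, -0.47 (standard error 0.21), at 2.23 to 3.33 FPKM in OP mice and 3.46 to 5.05 FPKM in OR mice, without overlap, and an adjusted p of 0.945 in limma-trend with Benjamini-Hochberg adjustment.

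Intermediate filament genes other than keratins were measured as a list that holds filaments of connective tissue, muscle and nerve cells and the lamins found in nuclei of epithelial and other cells. Of 14 listed, 13 were tested and 0 were called, with a median of -0.08, 3 of 13 above 0, that turned to 0.05, 7 above 0, with scaling by the median of ratios. *Vim*, which encodes vimentin, the filament of connective tissue cells, had 33.4, 41.0 and 62.2 FPKM in OP mice and 81.8, 75.3 and 95.4 FPKM in OR mice 1, 2 and 3. No OP mouse reached the lowest OR mouse, and the log2 fold change was -0.91 (standard error 0.23), with an unadjusted p of 0.00477 and an adjusted p of 0.798 in limma-trend. *Des*, which encodes the muscle filament desmin, had 149.97 ± 48.7 FPKM (SD, n = 3) in OP mice and 157 ± 51.8 FPKM (SD, n = 3) in OR mice. *Lmna*, which encodes nuclear lamins, had 100.2 ± 61.5 FPKM (SD, n = 3) and 116 ± 11.3 FPKM (SD, n = 3).

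The 31 other keratins of the table were near the floor, and 6 of them passed the filter, with 0 called. The highest were *Krt12*, *Krt10* and *Krt222*. *Krt12*, the corneal keratin and the coding gene next to *Krt20*, had 5.40, 0.96 and 0.92 FPKM in OP mice and 1.41, 3.04 and 1.22 FPKM in OR mice 1, 2 and 3. It was highest in OP mouse 1 and OR mouse 2, where *Krt20* was also highest. In OP mouse 2, with *Krt20* nearly as high at 937 FPKM, *Krt12* was near its lowest value. *Krt10*, a keratin of cornified skin, had 2.09, 1.95 and 1.43 FPKM in OP mice and 1.06, 1.31 and 1.05 FPKM in OR mice, without overlap, with an adjusted p of 0.945 in limma-trend.

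The general epithelial markers themselves gave a median log2 fold change of 0.04 and a mean of -0.01, with 9 of 15 above 0 (12 with scaling by the median of ratios), 0 called and 1, *Klf5*, below an unadjusted p of 0.05. *Lgals4*, a galectin of intestinal cells, had 3861 ± 491 FPKM (SD, n = 3) in OP mice and 3382 ± 398 FPKM (SD, n = 3) in OR mice. With the samples scaled to these 15 genes, *Krt20* had a log2 fold change of 0.45 and *Vil1* of 0.38, close to the unscaled values. The lists that mark positions along the crypt had 0 called genes, beside 0.0222% of all genes. For the 9 surface genes the median was 0.20, with 7 above 0, and it was 0.07 without OP mouse 1, 0.13 without OR mouse 3, 0.37 without OP mouse 3 and 0.55 without OR mouse 2. For the 9 crypt base and cycling genes, which include *Cd44* and *Top2a*, it was -0.58. All 9 were below 0, as were 9475 of all 13520 genes. Without OP mouse 1 the median of these 9 genes was -0.24, with 6 below 0, beside 7115 of all genes. *Top2a*, a topoisomerase of dividing cells, had 4.23, 14.8 and 8.52 FPKM in OP mice and 13.6 to 16.9 FPKM in OR mice. OP mouse 1, the highest in *Krt20* and *Vil1*, was the lowest in *Top2a*.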

How the data were processed

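Colon RNA of 3 OP and 3 OR mice was sequenced. According to the methods, the authors enriched mRNA, made stranded libraries, ran them on a DNBSEQ sequencer and removed poor reads with SOAPnuke. Bowtie2 served for alignment to a reference gene set, and RSEM for quantification. The submitters' processing notes also name HISAT2 2.0.4 and the build GRCm39. The authors deposited FPKM values, 1 column per sample, to 2 decimals. All columns were used.

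Samples were grouped from their labels. Genes at 0.5 FPKM or more in 3 or more mice were tested with limma-trend (limma 3.58.1, R 4.3.3) on log2(FPKM + 1), OP against OR, two-sided, without covariates, with Benjamini-Hochberg adjustment over all genes. The study used DESeq2, which needs counts and was not run. Ratios within mice were compared with exact permutation tests of log2 ratios (SciPy 1.17.1). The fit was tested on simulated data. The genes and lists were chosen with earlier results of these data known. Named were the 7 genes, in each list the 2 highest genes and the gene with the largest difference, the 3 highest other keratins and the 3 genes most like *Krt8*, *Krt20* and *Vil1*, and further genes are named as examples. 1 gene that this rule names is not reported here. Of the lists, tuft, enteroendocrine, smooth muscle, adipocyte and leukocyte markers also had 0 called genes, beside 0.0222% of all genes. Alternatives were other scalings, filters, a pseudocount of 0.1, no trend, a block for the replicate number, sample weights and each mouse left out. Motifs were searched as exact letters.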

Additional observations from a re-analysis of the deposited data

How the results depend on the processing

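None of the 7 genes was called under any of the 15 other fits or without the fold change threshold, and their median log2 fold change stayed between -0.11 and 0.17. Over all genes, 0 were called higher in OP mice in each of these fits. The number called lower, 3, was 2 without trend, 0 with median-of-ratios scaling, 0 with TPM, 0 with scaling to the general epithelium list, 0 with a pseudocount of 0.1, 0 without a filter, 0 with at least 1 FPKM in all 6 mice, 5 with sample weights and 0 to 1 with each mouse left out. The cause was not tested.

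Values near 0 changed sign. *Krt19* had a log2 fold change of 0.069 with median-of-ratios scaling, 0.056 with sample weights and 0.051 without OP replicate 3. *Krt18* had 0.17 with sample weights, 0.37 without OP replicate 1 and 0.11 without OR replicate 3. *Krt8* had -0.0042 without OP replicate 1, -0.11 without OP replicate 2 and -0.05 without OR replicate 1, and *Krt23* -0.12 without OR replicate 2. With each mouse left out, *Krt18* ranged from -0.66 to 0.37, *Krt19* from -0.24 to 0.051 and *Krt23* from -0.12 to 0.70. The log2 difference of the type I to type II ratio, 0.05, was -0.082 without *Krt20* and *Krt23* and from -0.012 to 0.11 with each mouse left out. That of *Krt8* to *Krt18*, 0.18, ranged from -0.37 to 0.55. *Krt20*, *Vil1* and *Krt7* kept their direction in all 15 fits, from 0.09 to 0.92, 0.18 to 0.60 and -0.80 to -0.17. Dropping the trend, changing the filter or adding the replicate block cannot change these estimates, so those fits do not test the direction.

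When the replicate block was added to pair same-numbered samples, 0 genes were called and *Krt7* had an unadjusted limma p of 0.0310 (adjusted 0.999). Same-numbered samples share only a number, with correlations of their deviations of -0.14, -0.16 and 0.07, and 0 of 6 correlated best with their own number. With 3 mice a group and no read totals, counting error and small differences cannot be resolved.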
